A study of Mus musculus with 2 samples.

Results

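Macrophages take up, store and release lipid with a small set of proteins, and 10 genes of that set are described here: Apoe, Fabp4, Fabp5, Lpl, Plin2, Abca1, Abcg1, Cd36, Gpnmb and Spp1. They were chosen by symbol from the 32544 genes of the count tables, and all 10 were found there. The cells were murine bone marrow-derived monocytes (BMDMs) on the way to osteoclasts (OCs), grown with M-CSF (50 ng/ml) and RANKL (100 ng/ml) and profiled by single-cell mRNA sequencing (scRNA-Seq) 24 h after RANKL. One library had the genotype control, with no allele named, and the other was LysM-Cre;Arid1afl/fl, called mutant below. LysM-Cre is expressed from the Lyz2 locus in myeloid cells, and it deletes floxed exons of Arid1a, which encodes a BAF chromatin remodeler subunit. Bone marrow for culture came from mice 4 to 6 weeks old, mice of either sex were used in the study, and how many stood behind a library was not stated. Each genotype had 1 library, so there is no test between them, and the genotype cannot be told apart from any other difference between the libraries. All intervals below are exact 95% intervals that cover counting error only.

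Monocytes and macrophages import fatty acids and lipoproteins through scavenger receptors, bind fatty acids in the cytosol, keep the surplus in lipid droplets, and pass cholesterol outward to lipoproteins through ABC transporters. Liver X receptors, which sense oxidized cholesterol, and PPARγ are well-known regulators of these genes. Osteoclasts arise from the same precursors under RANKL, and Gpnmb and Spp1 are made by both macrophages and osteoclasts.

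The members lie on 7 chromosomes of GRCm39. On the plus strand were Fabp5 (ENSMUSG00000027533) at chr3:10077602-10081674, Lpl (ENSMUSG00000015568) at chr8:69284603-69360100, Abcg1 (ENSMUSG00000024030) at chr17:31276649-31336969, Gpnmb (ENSMUSG00000029816) at chr6:49013426-49047863 and Spp1 (ENSMUSG00000029304) at chr5:104582165-104589235. On the minus strand were Apoe (ENSMUSG00000002985) at chr7:19430034-19434947, Fabp4 (ENSMUSG00000062515) at chr3:10268785-10273737, Plin2 (ENSMUSG00000028494) at chr4:86565912-86588459, Abca1 (ENSMUSG00000015243) at chr4:53030787-53159900 and Cd36 (ENSMUSG00000002944) at chr5:17986432-18094067. Fabp4 and Fabp5 are relatives on one chromosome. Plin2 and Abca1 overlap no other annotated gene. Apoe, Fabp4, Fabp5, Lpl, Cd36 and Gpnmb overlap a gene on the opposite strand, and Abcg1 and Spp1 overlap one on their own strand. Whether strand was used in counting was not stated, so reads of those 6 genes and their opposite-strand partners may not be told apart. Reads of Abcg1 and Spp1 share a strand with the overlapping gene, so their counts are uncertain either way. A pseudogene of Fabp5 (Fabp5l2) is annotated.

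Promoter sequence was at hand for 6 of the 10 members. The 250 bases before the first listed start are shown for the genes at the ends of the comparison between the libraries, Apoe and Abca1 (highest in mutant over control) and Spp1 (lowest). The letters are those of RefSeq on GRCm38.p6, 5′ to 3′ on the gene's strand, at chr7:19699189-19699438 (minus) for Apoe, chr4:53159896-53160145 (minus) for Abca1 and chr5:104434861-104435110 (plus) for Spp1. Capitals mark matches to the motifs of the next paragraph. No entry was used for Fabp4, Fabp5, Lpl and Abcg1.
Apoe: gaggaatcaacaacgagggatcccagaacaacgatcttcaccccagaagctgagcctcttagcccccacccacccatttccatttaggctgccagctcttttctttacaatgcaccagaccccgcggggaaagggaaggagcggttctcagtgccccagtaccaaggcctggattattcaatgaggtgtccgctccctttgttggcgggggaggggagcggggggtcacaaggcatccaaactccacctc
Abca1: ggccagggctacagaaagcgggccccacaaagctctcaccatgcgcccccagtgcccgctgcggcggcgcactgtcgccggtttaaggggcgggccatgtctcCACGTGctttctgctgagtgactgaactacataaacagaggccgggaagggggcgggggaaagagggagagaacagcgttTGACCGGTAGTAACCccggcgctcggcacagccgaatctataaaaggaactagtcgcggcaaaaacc
Spp1: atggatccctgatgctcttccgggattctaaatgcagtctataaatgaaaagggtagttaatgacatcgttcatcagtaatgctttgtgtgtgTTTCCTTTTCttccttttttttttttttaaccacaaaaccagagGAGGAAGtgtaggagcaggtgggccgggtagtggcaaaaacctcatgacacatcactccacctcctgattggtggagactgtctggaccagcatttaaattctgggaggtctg

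The 5 motifs were chosen after the sequences had been seen and were searched on both strands. The liver X receptor repeat (GGTNA, 5 bases, GGTCA) stood in the Abca1 promoter from base -67 to base -53 before the start, on the strand opposite to the gene, and in 0.177% of the 32851 promoters of the table. The E-box CACGTG stood in the Abca1 promoter from -147 to -142 and in 6.02% of all promoters. In the Spp1 promoter the PU.1 motif GAGGAAG stood from -113 to -107 (10.6% of all promoters), and the IRF repeat (GAAA, 2 bases, GAAA) from -157 to -148 on the opposite strand (2.98% of all promoters). The AP-1 motif TGANTCA (6.75% of all promoters) was in none of the 9 member promoters listed, and the Apoe promoter shown held none of the 5. No match overlapped another motif's match, and a match describes letters and does not show binding.

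Cells with at least 500 genes and at most 10% mitochondrial UMIs were kept, 6269 control and 5663 mutant cells with medians of 23978 and 21734 unique molecular identifiers (UMIs, each standing for 1 captured mRNA molecule). The libraries shared 7 barcodes. Levels are given as CPM, the UMIs of a gene per 1000000 UMIs of a library or group of cells. Arid1a itself was at 51.9 CPM in control and 20.4 CPM in mutant cells (log2 ratio -1.35, interval -1.41 to -1.28), read at the 3′ end, where transcripts of a recombined allele can still be counted. The macrophage markers Csf1r (256 and 402 CPM, control first), Adgre1 (147 and 534 CPM) and Cd68 (469 and 603 CPM) were present in both libraries, while Lyz2, the locus that carries the Cre, was at 10803 and 5432 CPM. The 4 neutrophil markers summed to 264 and 1982 CPM, and 17 control and 83 mutant cells passed a neutrophil gate. Without them and the 3 stromal-gate cells of each library, no member's log2 ratio between the libraries moved by more than 0.0104. The 4 adipocyte markers had no UMI in either library.

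Of the 10 members, 7 were higher and 3 lower in the mutant library. Apoe was 9.50-fold and Abca1 3.77-fold higher, while Spp1 was 5.07-fold and Abcg1 1.96-fold lower. Together the members held 0.560% of control UMIs and 0.601% of mutant UMIs. Past a ratio of 2-fold, 2 members were higher and 1 was lower, and with TMM scaling Abcg1 made 2 lower. The 5219 genes that averaged 20 CPM or more include 8 members (not Fabp4 or Abcg1). Of these genes 47.6% were lower in the mutant library by any amount, 5.65% were at least 2-fold higher and 1.13% at least 2-fold lower. The median log2 ratio was 0.38 over the members and 0.02 over those genes. Abca1 (9.45 CPM in control and 35.7 CPM in mutant cells) is one of the 8 members only through its mutant level. The floor thus favoured its call as higher.

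**Figure D1:**
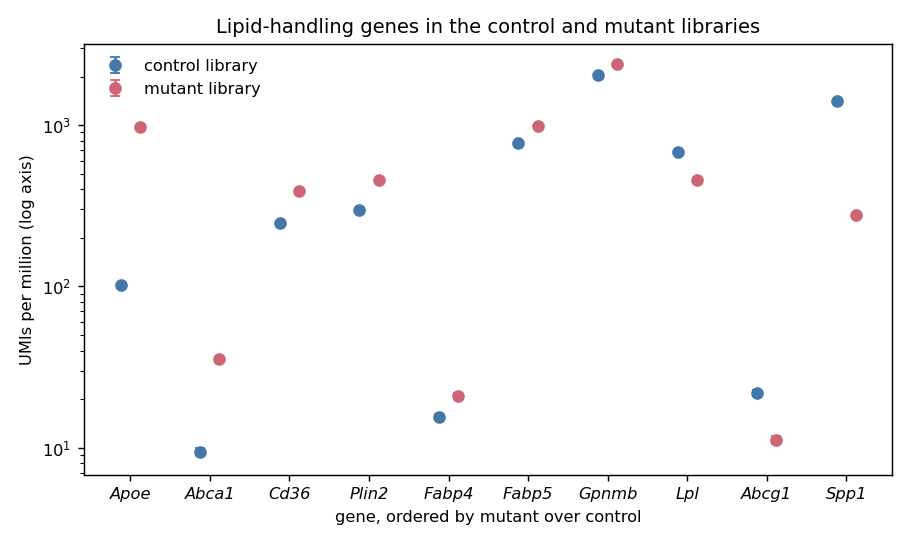
CPM of the 10 genes (log axis) in the control and mutant libraries, ordered by mutant over control, with bars for the exact 95% counting interval, which mostly hide behind the points. Apoe stands at 103 and 976 CPM and Spp1 at 1404 and 277 CPM, at opposite ends of the order.

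Apoe, the apolipoprotein that macrophages secrete to accept cholesterol, was at 103 CPM in control and 976 CPM in mutant cells, for a log2 ratio of 3.25 (3.23 to 3.27). Its ratio stood at percentile 99.8 of the 5219 genes, and its rank by level went from 1387 to 157. To compare shares of cells at 1 depth, each cell was thinned to 5000 UMIs, which left 6101 control and 5312 mutant cells. After thinning an Apoe UMI was found in 20.4% of control and 64.2% of mutant cells, and before thinning in 40.7% and 79.6%. Neutrophil-gate cells, which should lack macrophage transcripts and had medians of 7523 and 10766 UMIs, gave the background: 2 of 15 control cells (up to 40.5%) and 11 of 70 mutant cells (up to 26.4%). The mutant share of Apoe cells lay above that background, and the control share lay within its interval. At least 10 Apoe UMIs were found in 0.770% of control and 15.2% of mutant cells. The top 10% of cells held 80.3% of the control Apoe UMIs and 57% of the mutant ones.

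Abca1, the transporter that loads cholesterol and phospholipid onto lipid-poor apolipoproteins, was at 9.45 CPM in control and 35.7 CPM in mutant cells, for a log2 ratio of 1.92 (1.83 to 2.00) at percentile 98.7. An Abca1 UMI was found in 4.61% of control and 15.2% of mutant cells (17.1% and 40.6% before thinning), against 0 of 15 and 3 of 70 neutrophil-gate cells. Abcg1, the transporter that passes cholesterol to mature high-density lipoprotein, went the other way. It was at 22 CPM in control and 11.2 CPM in mutant cells, for a log2 ratio of -0.97 (-1.06 to -0.89). That stood at percentile 1.28 of the genes ranked, though Abcg1 averaged below their floor of 20 CPM. An Abcg1 UMI was found in 9.49% of control and 5.12% of mutant cells (32.7% and 15.4% before thinning). Of neutrophil-gate cells it was found in 0 of 15 control cells (up to 21.8%) and in 2 of 70 mutant cells (up to 9.94%), so neither share of Abcg1 cells stood above the background. The levels of the transporters thus differed in opposite directions between the libraries.

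Cd36, the scavenger receptor for oxidized lipoprotein and fatty acids, was at 249 CPM in control and 389 CPM in mutant cells, for a log2 ratio of 0.65 (0.63 to 0.67). A Cd36 UMI was found in 54.1% of control and 68.9% of mutant cells (81.6% and 85.4% before thinning), against 1 of 15 and 11 of 70 neutrophil-gate cells. Level and share were both higher in the mutant library. Lpl, the secreted lipase that frees fatty acids from triglyceride-rich lipoproteins, was lower there, at 677 CPM in control and 457 CPM in mutant cells, for a log2 ratio of -0.57 (-0.58 to -0.55) at percentile 6.25. An Lpl UMI was found in 84.6% of control and 70.0% of mutant cells (96.9% and 87.9% before thinning), against 3 of 15 and 10 of 70 neutrophil-gate cells.

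Plin2, the protein that coats lipid droplets, was at 296 CPM in control and 457 CPM in mutant cells, for a log2 ratio of 0.62 (0.61 to 0.64). A Plin2 UMI was found in 68.7% of control and 80.5% of mutant cells (95% and 94.4% before thinning), against 4 of 15 and 26 of 70 neutrophil-gate cells. Its UMIs were spread over many cells, the top 10% of which held 32.7% in control and 30.4% in mutant cells. Fabp5, a cytosolic fatty acid binding protein of epidermis and macrophages, was at 778 CPM in control and 987 CPM in mutant cells, for a log2 ratio of 0.34 (0.33 to 0.35). Its relative Fabp4, best known from adipocytes, had far fewer UMIs, with 15.6 CPM in control and 20.9 CPM in mutant cells, for a log2 ratio of 0.42 (0.34 to 0.50). A Fabp4 UMI was found in 5.18% of control and 4.42% of mutant cells (16.4% and 9.59% before thinning), so the mutant library had the higher level but not the higher share. Among neutrophil-gate cells Fabp4 was found in 0 of 15 and 0 of 70, with exact upper limits of 21.8% and 5.13%, so neither share of Fabp4 cells stood above the background.

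Gpnmb, a lysosomal and cell-surface glycoprotein of lipid-laden macrophages and osteoclasts, had the most UMIs of the members in both libraries. It was at 2044 CPM in control and 2398 CPM in mutant cells, for a log2 ratio of 0.23 (0.22 to 0.24). Its level was higher in the mutant library, but fewer cells held a UMI, 96% of control and 81.7% of mutant cells (98.2% and 90.3% before thinning, and 5 of 15 and 17 of 70 neutrophil-gate cells). At least 20 Gpnmb UMIs were found in 11.1% of control and 20.2% of mutant cells, and the top 10% of cells held 27% and 37.6% of its UMIs. Fabp5 had the same pattern. A Fabp5 UMI was found in 76.4% of control and 66.5% of mutant cells (91% and 82% before thinning, and 0 of 15 and 9 of 70 neutrophil-gate cells), and the top 10% of cells held 39.1% and 51% of its UMIs.

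Spp1, which encodes the secreted phosphoprotein osteopontin, was at 1404 CPM in control and 277 CPM in mutant cells, for a log2 ratio of -2.34 (-2.36 to -2.33) at percentile 0.115. A Spp1 UMI was found in 88.1% of control and 43.4% of mutant cells (97.9% and 66% before thinning), against 5 of 15 and 15 of 70 neutrophil-gate cells. At least 5 Spp1 UMIs were found in 46.3% of control and 6.33% of mutant cells. The mutant library was thus lower in Spp1 at each number of UMIs plotted.

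**Figure D2:**
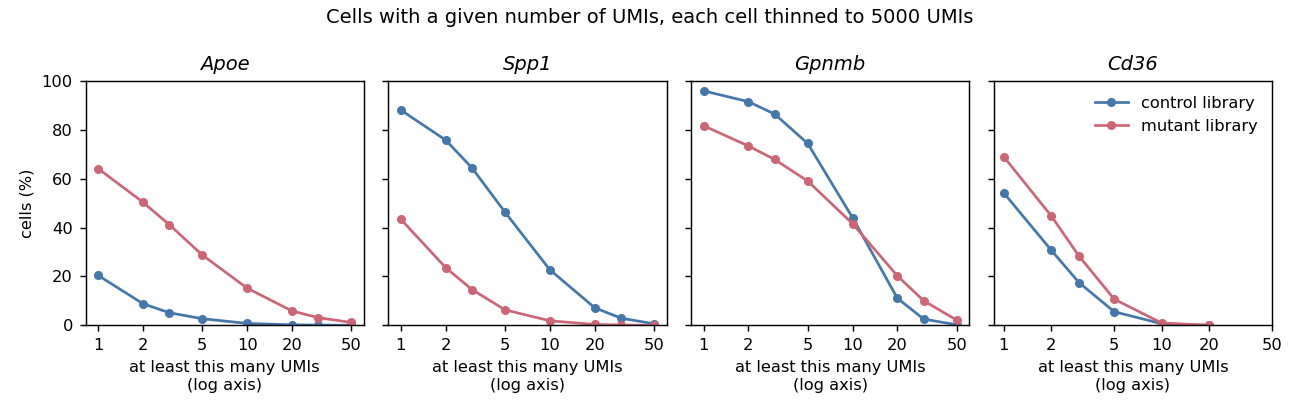
Share of cells (%) with at least a given number of UMIs (log axis) of Apoe, Spp1, Gpnmb and Cd36, with each of 6101 control and 5312 mutant cells thinned to 5000 UMIs. The mutant curve lies above the control curve for Apoe and below it for Spp1, and the Gpnmb curves cross between 10 and 20 UMIs.

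Cells were then divided by 2 gates on the thinned UMIs, each needing at least 3 UMIs: an OC gate (Ctsk, Mmp9, Acp5 and Dcstamp together, genes of bone resorption and cell fusion) and a cycling gate (Mki67, Top2a, Aurka and Cdk1). The OC gate held 595 control cells (9.75%) and 181 mutant cells (3.41%), and 3337 control and 3424 mutant cells passed neither gate. In the cells of neither gate the log2 ratios between the libraries were 3.03 for Apoe, 1.71 for Abca1, -0.80 for Abcg1 and -2.46 for Spp1, with the directions seen in all cells. There 2 members were at least 2-fold higher and 1 at least 2-fold lower, against 4.95% and 1.05% of 5055 genes, and the members' median was 0.43. Abca1 (11.9 CPM in control and 38.8 CPM in mutant cells of neither gate) is one of those genes only through its mutant level. In cells of the cycling gate alone (2169 control and 1707 mutant cells), Fabp4 was the member whose direction differed from that in neither cells. It was at 13.1 and 9.37 CPM there (-0.48, -0.65 to -0.31) and at 19.5 and 27.5 CPM in neither cells (0.49, 0.40 to 0.59). Within both libraries all 10 members were lower in cycling-gate than in neither cells, while of the genes tested 37.3% of 5049 in the control and 39.9% of 5343 in the mutant library were lower. The members' medians were -0.26 and -0.33 on the log2 scale, against 0.06 and 0.04 over those genes. For Fabp4 the ratio was 1.49-fold in control and 2.93-fold in mutant cells, and for the other 9 it ran from 1.08-fold (Lpl, control) to 1.78-fold (Abca1, control).

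In the control library, 9 of the 10 members were lower in OC-gate cells than in the other cells, and Abcg1 was 2.05-fold higher. Cd36 was at 67.2 CPM in the gate and 271 CPM outside, a log2 ratio of -2.01 (-2.09 to -1.93). Spp1 was at 474 and 1521 CPM, a log2 ratio of -1.68 (-1.71 to -1.65). Fabp4, Apoe and Plin2 were also at least 2-fold lower, with log2 ratios of -1.46 (-1.75 to -1.19), -1.20 (-1.30 to -1.11) and -1.05 (-1.10 to -0.99). Gpnmb, Fabp5, Abca1 and Lpl differed by less, with -0.35 (-0.37 to -0.33), -0.31 (-0.33 to -0.28), -0.23 (-0.48 to 0.01) and -0.03 (-0.05 to 0.00). Of 5052 genes tested, 4.3% were at least 2-fold lower in the gate and 1.39% at least 2-fold higher, with a median of 0.09. Those genes hold 8 of the members (not Fabp4 or Abca1), of which 4 were at least 2-fold lower. Abcg1 (40.3 CPM in the gate and 19.7 CPM outside) is one of the 8 only through its level in the gate. The count of 5 members at least 2-fold lower was 3 with another random seed and 0 with gates on all UMIs. Total UMIs had medians of 27938 in OC-gate cells and 23877 outside, and in the mutant library of 23813 and 22326.

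In the mutant library the same gate gave smaller or opposite differences for the members other than Abcg1, and no member was 2-fold lower. Abcg1 was again higher, at 36.1 CPM in the gate and 10.3 CPM outside. Its log2 ratio of 1.81 (1.58 to 2.05) was larger than the 1.04 (0.92 to 1.15) of the control library. Of 5324 genes tested, 0.902% were at least 2-fold higher and 0.488% at least 2-fold lower. Abcg1 is one of them only through its level in the gate. Spp1 (log2 ratio 0.79 (0.73 to 0.85)), Fabp5 (0.52 (0.48 to 0.55)), Lpl (0.30 (0.25 to 0.36)), Apoe (0.28 (0.24 to 0.32)) and Gpnmb (0.06 (0.04 to 0.09)) were higher in the gate. Cd36 (-0.37 (-0.44 to -0.29)) and Plin2 (-0.16 (-0.23 to -0.10)) were lower, and the intervals of Abca1 (-0.17 (-0.42 to 0.06)) and Fabp4 (-0.11 (-0.42 to 0.19)) held 0.

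The make-up of the gate differed between the libraries. Acp5, the tartrate-resistant acid phosphatase that macrophages can express too, gave 44.3% of the gate's UMIs in control and 66.3% in mutant cells, and 43 of 595 control cells (7.23%) but 77 of 181 mutant cells (42.5%) passed on Acp5 alone. With Acp5 left out, 394 control and 42 mutant cells passed, and Apoe was then lower in the gate in both libraries (log2 ratio -1.24 control, -1.09 mutant). Fabp5 (-0.32 and -0.62) and Gpnmb (-0.34 and -0.15) were likewise lower in both, and Abcg1 was higher in both (1.10 and 1.43). The direction of Spp1 in the mutant gate rested on few cells. One cell held 890 of its 2215 UMIs (40.2%), and without the 5 cells highest in Spp1 the log2 ratio was -0.22 (-0.31 to -0.14). Leaving out the 5 cells highest in each gene took Apoe to -0.02 and Gpnmb to -0.11 in the mutant gate. These cells were left out of the gate and not of the other cells, which by itself lowers the ratio. It does so more in the mutant gate, where 5 cells are a larger part of 181 than of the 595 control cells.

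**Figure D3:**
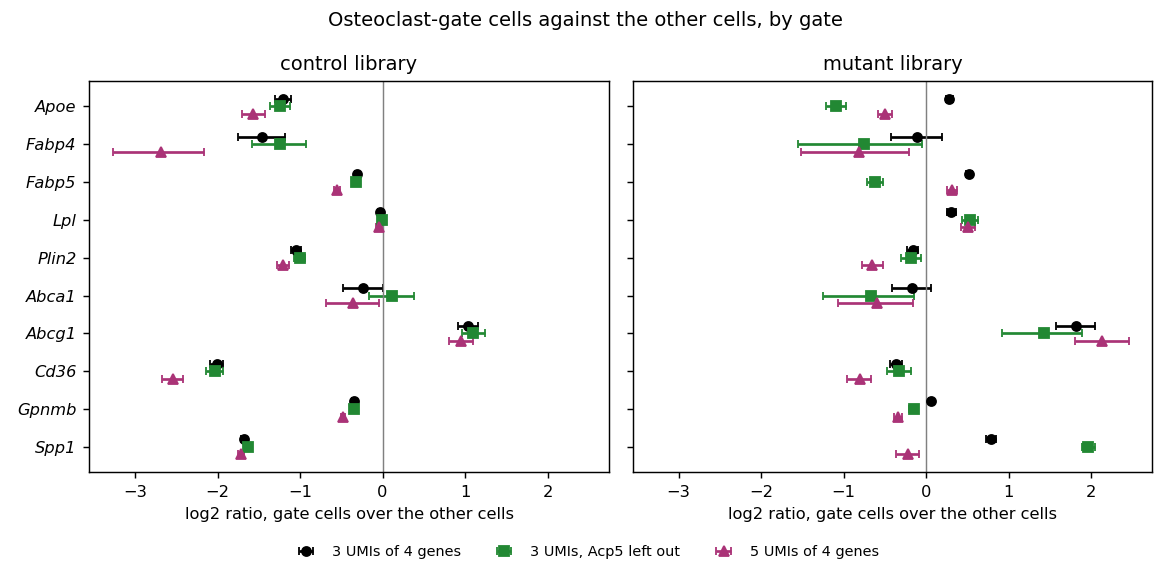
Log2 ratio of each gene's CPM in OC-gate cells over the other cells, within the control (left) and mutant (right) library, under 3 definitions of the gate, with bars for the exact 95% counting interval. In the mutant library Apoe lies above 0 with 3 UMIs of 4 genes (0.28) and below 0 with Acp5 left out (-1.09) or 5 UMIs (-0.50), while in the control library it lies below 0 under all 3.

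Grading the cells by their OC-gate UMIs gave the level of each member at matched grades. In the control library Cd36 went from 283 CPM in the 4331 cells with no such UMI through 148 CPM at 2 UMIs and 49.6 CPM at 6 to 10 UMIs to 30.9 CPM in the 129 cells with over 10. From the first to the last grade, Plin2 went from 324 to 105 CPM, Apoe from 112 to 34.5 CPM and Gpnmb from 2055 to 1082 CPM. Control Spp1 was at 1609 CPM with no UMI, 367 CPM at 6 to 10 and 537 CPM above 10. Abcg1 had the opposite order, with 18.1 CPM at no UMI, 48.1 CPM at 6 to 10 and 30.9 CPM above 10.

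In the mutant library several members were far lower in the last grade, which held only 14 cells, than in any other grade. Apoe was at 937 CPM with no OC-gate UMI, 1398 CPM at 3 to 5 (131 cells), 861 CPM at 6 to 10 (36 cells) and 140.0 CPM above 10. At the same grades Cd36 was at 391, 346, 281 and 42 CPM. Abcg1 had an order like that of the control, from 9.08 CPM with no UMI to 48.8 CPM at 6 to 10 and 49 CPM above 10. In the cells above 10 UMIs, the intervals of the libraries overlapped for Abca1 (6.04 to 11.9 CPM control, 2.54 to 23.9 CPM mutant), Cd36 (25.8 to 36.7 and 24.9 to 66.4 CPM), Fabp5 and Abcg1. They lay apart and higher in the mutant library for Apoe (29.1 to 40.6 and 107 to 180.3 CPM), Lpl (552 to 599 and 762 to 939 CPM) and Plin2 (95 to 115 and 119 to 196 CPM). For Gpnmb (1051 to 1114 and 667 to 833 CPM) and Spp1 (515 to 560 and 286 to 398 CPM) they lay apart and lower in the mutant library. Fabp4 had 1 UMI in the control and 0 in the mutant cells of that grade. How many of all genes had intervals apart in this grade was not computed, so these differences are not shown to be particular to the members. The intervals also leave out the spread between the 14 mutant cells.

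**Figure D4:**
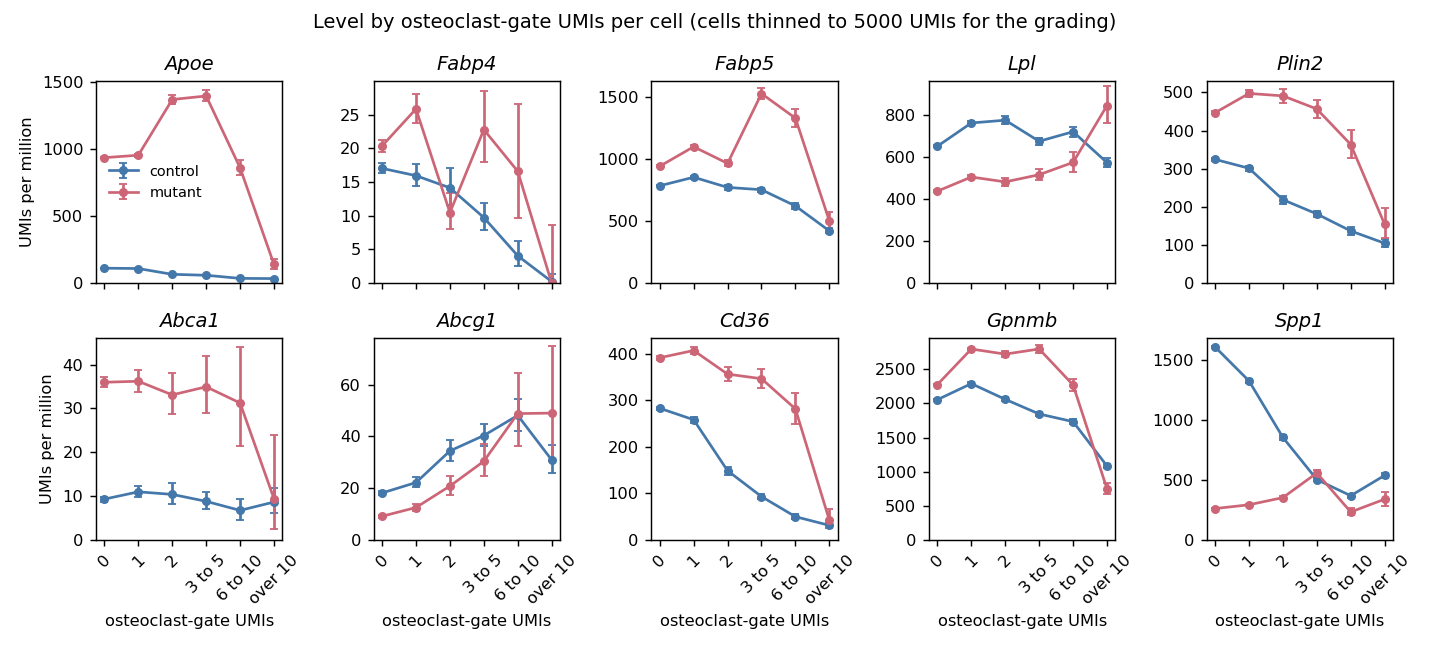
CPM of each gene by the number of OC-gate UMIs (Ctsk, Mmp9, Acp5 and Dcstamp) per cell after thinning to 5000 UMIs, in the control and mutant libraries, with bars for the exact 95% counting interval. Cd36 and Plin2 are lower at each higher grade in the control library, and the last mutant grade, which stands on 14 cells, is low for Apoe, Cd36, Plin2, Abca1 and Gpnmb.

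Between the libraries within the OC gate, 6 of the 10 members were at least 2-fold higher in the mutant library. Apoe was at 47.4 and 1169 CPM, a log2 ratio of 4.62 (4.52 to 4.73). The log2 ratios of the others were 2.18 for Cd36, 1.96 for Abca1, 1.68 for Fabp4, 1.43 for Plin2 and 1.11 for Fabp5. Of 5238 genes tested in the gate, 9.11% were at least 2-fold higher and 2.04% at least 2-fold lower. Those genes hold 9 of the members (not Fabp4), of which 5 were at least 2-fold higher. Abca1 (8.19 CPM in control and 31.8 CPM in mutant cells) is one of the 5, and it averaged 20 CPM only through its mutant level. The floor thus favoured its call as higher. Spp1 (-0.02, -0.09 to 0.05) and Abcg1 (-0.16, -0.41 to 0.08) had intervals that held 0, and Lpl was at -0.25 and Gpnmb at 0.61. The value of Spp1 depended on the gate and on few cells. It was -0.91 without the 5 cells highest in Spp1 in each library, -0.65 with another random seed of the thinning, -0.91 with a gate at 5 UMIs, -1.58 with gates on all UMIs and 1.14 with Acp5 left out. With Acp5 left out the log2 ratio was 3.34 for Apoe, 2.28 for Cd36 and 0.03 for Fabp5. Of the gate's cells, 14 of 181 mutant and 129 of 595 control cells had over 10 OC-gate UMIs, so the gate compares cells of unlike grade.

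Most pairs of members were found in the same cells about as often as the product of their shares gives, but this measure has a ceiling. The ratio cannot exceed 1 over the larger share. With a member found in most cells it therefore cannot rise far above 1, however often the members go together. Among pairs whose members were each found in 1% to 95% of the thinned cells, the median ratio of observed to multiplied share was 1.03 over 36 control pairs and 1.02 over 45 mutant pairs. Fabp4 and Fabp5 had ratios of 1.26 in control and 1.46 in mutant cells, on 303 and 228 cells with both, of 316 and 235 cells with Fabp4. Apoe and Abca1, which act in one efflux step, had ratios of 1.33 and 1.08, on 76 and 559 cells. The transporters Abca1 and Abcg1 had ratios of 0.862 and 1.01. Abcg1 had ratios below 1 in both libraries with Cd36 (0.744 and 0.853), with Apoe (0.829 and 0.877) and with Fabp4 (0.534 and 0.582, on only 16 and 7 cells). The median cell of both libraries held UMIs of 5 members, and 1.92% of control and 2.94% of mutant cells held 8 or more.

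**Figure D5:**
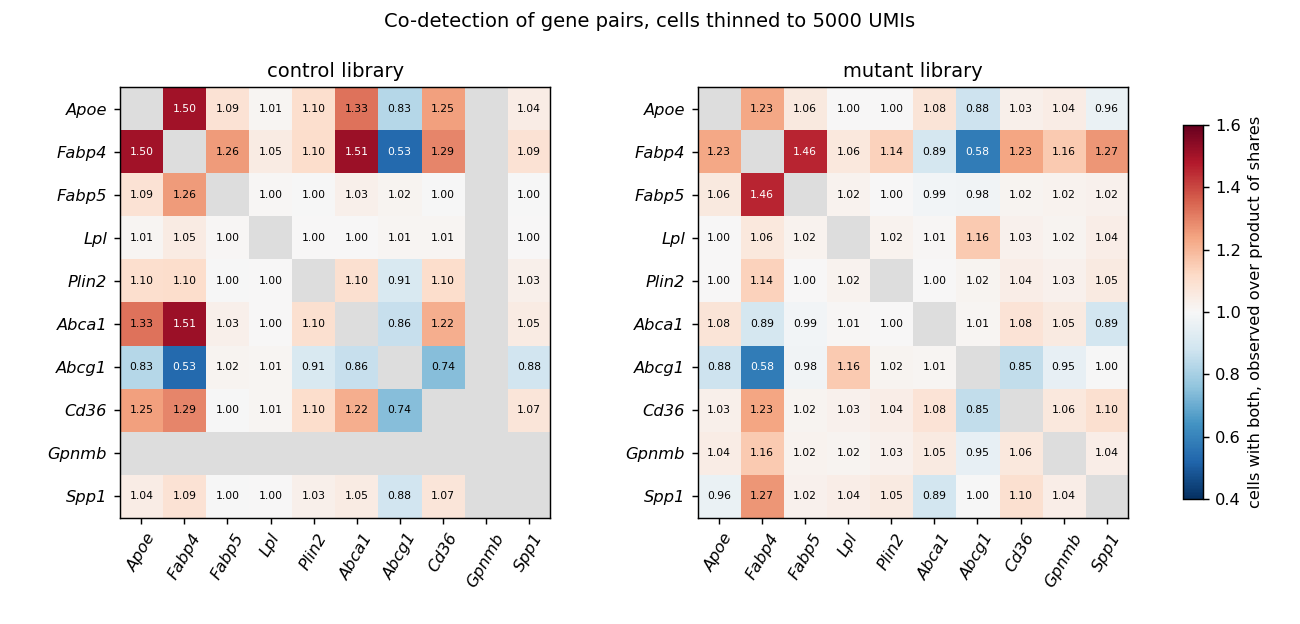
Observed share of cells with both genes of a pair over the product of their shares, in cells thinned to 5000 UMIs, for the control (left) and mutant (right) library, with grey for pairs outside the 1% to 95% range. Most pairs lie near 1, and Abcg1 lies below 1 with Cd36 and Fabp4 in both libraries. The ratio cannot rise far above 1 where a member is found in most cells.

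Across cells, the 3 non-member genes most like each member were taken by the mean over the libraries of Pearson r of log2(1 + UMIs) at 5000 UMIs, and those with r of at least 0.2 in both libraries are named. The 6101 control and 5312 mutant cells each share a library, so these values are descriptions. Cd36 was most like Prdx1, a peroxiredoxin (r = 0.53 and 0.45, control first), and the lysosomal proteases Ctsb (0.51 and 0.43) and Ctsd (0.52 and 0.39). Gpnmb was most like Ctsb (0.39 and 0.53), the galectin Lgals3 (0.44 and 0.46) and the protease Ctss (0.34 and 0.46). Plin2 was most like Lgals3 (0.35 and 0.39), the ferritin heavy chain gene Fth1 (0.33 and 0.31) and Ctsd (0.34 and 0.27), and Apoe was nearest to Ms4a7 (0.23 and 0.34), the saposin precursor Psap (0.23 and 0.33) and Ctsb (0.24 and 0.30). For the other 6 members none of the 3 reached 0.2 in both libraries. Npy, a neuropeptide gene that was the fourth for Spp1 and is named after its values were seen, had 0.30 and 0.27. Between members, Cd36 and Spp1 had r = 0.40 in control and 0.16 in mutant cells.

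Other genes of lipid handling, in lists drawn up by role, were mostly higher in the mutant library. Of 15 lipid-related transcription factors, 7 averaged 20 CPM or more and all 7 were higher, from Mitf (0.18) to Nr1h3, which encodes liver X receptor α and was at 13.9 and 58.2 CPM (log2 ratio 2.07). Nr1h3 reached that average only through its mutant level, and not all factors below the average were higher. Of 10 further uptake receptors, the 7 above that level were higher, from Marco (0.35) to Cxcl16 (157 and 373 CPM, 1.25). Of 10 genes of cholesterol handling, the 4 above that level were higher, from Lpcat3 (0.01) to Pltp, a phospholipid transfer protein (60.6 and 218 CPM, 1.85). In each of these lists 1 gene was at least 2-fold higher and none 2-fold lower, and the medians were 0.41, 0.59 and 0.71 against 0.02 over all genes tested. Of those 5219 genes 47.6% were lower and 5.65% at least 2-fold higher. The lists were drawn up with earlier results of these data known.

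Droplet and fatty acid genes were more mixed. Of 16 droplet and lipolysis genes, 7 averaged 20 CPM or more, 6 higher and 1 lower, with a median of 0.21. Lipa, the lysosomal acid lipase, was at 429.5 and 876 CPM (1.03), and Hilpda, an inhibitor of droplet lipolysis, at 32.9 and 15.9 CPM (-1.05). Of 19 genes of fatty acid binding and oxidation, 11 reached that level, 6 higher and 5 lower, with a median of 0.12. They ran from Cpt1a, which brings fatty acids into mitochondria (18.6 and 37.6 CPM, 1.02), to Acsl1, which activates them (98.5 and 65.8 CPM, -0.58). Cpt1a averaged 20 CPM only through its mutant level, and Hilpda only through its control level. Of 10 further genes of lipid-associated macrophages, 7 were higher and 3 lower, with a median of 0.51, from Ctsd (2094 and 5381 CPM, 1.36) to Lgals1 (2439 and 1799 CPM, -0.44). Trem2, a lipid-sensing receptor named here after its value was seen, was at 413 and 602 CPM (0.54).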

How the data were processed

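Single-cell mRNA sequencing of 1 control and 1 LysM-Cre;Arid1afl/fl library was analysed. The authors deposited unnormalized UMI counts for each gene in each barcode, which Cell Ranger 6.1.0 wrote (per the file headers), and GRCm39 was the genome build in the submitters' processing notes. The study's methods name aggregation of the count matrices with the same pipeline, and whether the deposited counts are from before or after that step was not stated. The annotation release and the use of strand were not given in the sources used here.

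Cells with at least 500 genes and at most 10% mitochondrial UMIs were kept, 6269 control and 5663 mutant cells. Levels are summed UMIs per 1000000 UMIs (CPM). For gates, shares and co-detection each cell was thinned at random to 5000 UMIs, and 168 control and 351 mutant cells below that depth were dropped. Intervals at 95% are exact (Poisson for levels, conditional binomial for ratios, Clopper-Pearson for shares) and cover counting error. No p-value was computed, since each group had 1 library, and a ratio of 2-fold was used for counts, among genes that averaged 20 CPM or more over the libraries. Neutrophil-gate cells had at least 5% of their UMIs from 4 neutrophil markers. Doublets were kept, and their removal (333 control and 275 mutant barcodes, 0.8% per 1000 barcodes) was an alternative. The other alternatives changed the scaling, the weighting of cells, the cell filter, the OC gate, the depth of thinning and the random seed.

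The members and gene lists were chosen with earlier results of these data known. The genes named were all members, Arid1a, the gate genes, the highest and lowest gene of each list, and, of the 3 non-member genes with the highest mean r with a member, those with r of at least 0.2 in both libraries. Python 3.11.15, NumPy 2.4.6, SciPy 1.17.1, pandas 2.3.3 and matplotlib 3.10.9 were used, and the interval and co-detection code was tested on simulated data.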

Additional observations from a re-analysis of the deposited data

Results flagged for a closer look

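For 4 members the ratio of OC-gate cells to the other cells had opposite directions in the libraries, and the difference was not tested, since each genotype had 1 library. The share of all genes with opposite directions was not computed, so the count of 4 cannot be read as a trait of the members. Mutant minus control, on the log2 scale, the difference was 2.47 for Spp1, 1.49 for Apoe, 0.82 for Fabp5 and 0.41 for Gpnmb. In each case the control ratio was below 0 (-1.68, -1.20, -0.31 and -0.35) and the mutant ratio above 0 (0.79, 0.28, 0.52 and 0.063). With Acp5 left out of the gate the mutant ratios were 1.96, -1.09, -0.62 and -0.15, so that of Spp1 alone kept the opposite direction. With the 5 cells highest in Spp1 left out of the gate alone, which by itself lowers the ratio, it was -0.22 for Spp1.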

How the results depend on the processing

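No member changed direction between the libraries under any of the 8 alternatives run on all cells, and the largest shift of a log2 ratio was 0.139, with every cell weighted alike. No paired analysis was possible because each group had 1 library and the replicate numbers came from accession order, and leaving out a library could not be computed. The count at least 2-fold lower was 2 in place of 1 with TMM scaling, median-of-ratios scaling, totals without mitochondrial and ribosomal protein genes, or a fold of 1.5, which also gave 4 higher in place of 2. The members' median of 0.38 was 0.29 with median-of-ratios scaling, 0.27 with totals without mitochondrial and ribosomal protein genes, which took the median of all genes from 0.02 to -0.08, and 0.29 with equal weight per cell. Results of the OC gate depended on its definition, and the cause was not tested. Within the control library the 5 members 2-fold lower were 3 with 2 UMIs or another random seed, 4 when thinned to 2000 UMIs, 2 when thinned to 10000 UMIs and 0 with gates on all UMIs. There the 1 member higher was 0 with 5 UMIs, over 10 UMIs, without Mmp9, thinned to 2000 UMIs or with gates on all UMIs. Gates on all UMIs reversed control Fabp5 (0.15) and Gpnmb (0.065). Within the mutant library, 1 member was 2-fold lower and 2 higher without Acp5, 5 lower with over 10 UMIs, and 0 higher with gates on all UMIs, against 0 and 1. Reversed there were Apoe with 5 UMIs (-0.50), without Acp5 (-1.09), thinned to 2000 UMIs (-0.22), with over 10 UMIs (-2.79) and without its 5 top cells (-0.018), and Gpnmb under the same settings (-0.34, -0.15, -0.37, -1.69 and -0.11). Fabp5 reversed without Acp5 (-0.62), thinned to 2000 UMIs (-0.30) and with over 10 UMIs (-0.98), and Spp1 with 5 UMIs (-0.22) and without its 5 top cells (-0.22). Plin2 and Cd36 reversed when thinned to 10000 UMIs (0.094 and 0.027) and with gates on all UMIs (0.16 and 0.067). Between the libraries within the gate, 1 member was 2-fold lower with gates on all UMIs in place of 0, and the 6 higher were 4 with 2 UMIs or gates on all UMIs, 5 without Acp5, thinned to 2000 or 10000 UMIs or with another random seed, and 1 with over 10 UMIs, with Lpl at 0.56 and Gpnmb at -0.53 reversed. In all, 19 of 119 values reversed within the mutant library and 2 of 120 within the control library. The share of all genes past 2-fold was not computed under the changed gates, so the counts of members given for them have no background. The settings with over 10 UMIs and without the 5 top cells were chosen after seeing the data. Within a library the 5 top cells were left out of the gate alone, which by itself lowers the ratio to the other cells. Abca1, Abcg1 and Fabp4 had the fewest UMIs, 1471 to 4689 a library. The median co-detection ratio, 1.03 in control and 1.02 in mutant cells, ran over the alternatives from 1.03 to 1.06 and from 1.01 to 1.06, and the control pairs in range fell from 36 to 21 when thinned to 10000 UMIs.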

Other observations

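Cells with at least 3 UMIs of Hmox1, the heme oxygenase gene, were 827 control and 580 mutant cells. Against the other cells of their library, the log2 ratio in them was 1.40 and 2.36 for Fabp4 (control first), 1.43 and 0.87 for Cd36, 1.59 and 0.63 for Apoe and 0.70 and 0.60 for Plin2. Abcg1, at -1.19 and 0.32, differed in direction between the libraries, which was not tested.

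Cells with at least 3 UMIs of Cd74, H2-Eb1, H2-Ab1 and H2-Aa (class II antigen presentation) together, 48 control and 152 mutant cells, had Abcg1 above the other cells (log2 ratio 0.48 and 1.95) and were lower in Apoe (-0.64 and -1.49), Fabp5 (-1.29 and -0.60) and Cd36 (-1.09 and -0.99). The control Abcg1 interval (-0.05 to 0.97) held 0.

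Cells without a Gpnmb UMI after thinning were 245 control (4.02%) and 972 mutant cells (18.3%), of which 10 and 53 passed the neutrophil gate. In the mutant library these cells had Csf1r at 359 CPM against 409 CPM in the others, Apoe at 573 against 1042 CPM, and a class II sum of 403 against 58.3 CPM. Their neutrophil sum was 9340.3 against 467 CPM, and its part in these values was not tested.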
